A study of Homo sapiens with 30 samples.

Results

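Liver and pancreas arise from neighbouring parts of the foregut endoderm, and HNF6 (ONECUT1), a homeodomain transcription factor, is active in both. The loci described here belong to 8 genes of the hepatic alternative. ALB, AFP, TTR, APOA1 and SERPINA1 encode proteins that liver cells secrete, and CEBPA, PROX1 and TBX3 encode transcription factors of the early liver. The members are all deposited regions within 100 kb of the start of these genes on hg19, chosen by position alone. They number 78 of 89929 regions listed as different between genotypes and 27 of 22974 regions in clusters of wild-type peaks.

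HUES8, an established human embryonic stem cell line, had been differentiated in vitro along the pancreatic lineage as HNF6 knockout cells and as wild-type control cells. ATAC-seq, in which a transposase cuts and tags open DNA, was made from 30 samples, 3 for each genotype at each of 5 stages. Cells were taken undifferentiated (ESC), as definitive endoderm (DE), at the primitive gut tube stage (GT), as endoderm of the pancreas (PE) and as progenitors of the pancreas (PP). The labels give neither the number of knockout clones nor whether the 3 samples of a group were separate differentiations, so their scatter may be purely technical. Knockout and control cells already differed at ESC, and an effect of HNF6 cannot be told apart from other differences between the lines.

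In early liver development, hepatoblasts switch on AFP and ALB, and secreted products such as transthyretin (TTR), apolipoprotein A-I (APOA1) and alpha-1-antitrypsin (SERPINA1) follow. Factors of the HNF1, HNF4, FOXA and C/EBP families bind the promoters and enhancers of such genes, and HNF6 is among the factors known to act on TTR. PROX1 is needed for hepatoblasts to leave the liver bud and is also made in pancreatic progenitors, CEBPA drives hepatocyte maturation, and TBX3 supports hepatoblast growth. RNA was not measured in the files used here, so every value below is accessibility of DNA.

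Each listed region carries 3 whole numbers for the knockout and 3 for the control, and a -log10 p, which is at least 5 in every list. All region values below come from the authors' deposited tables, and log2 ratios are knockout over control, computed from the means with 1 added to each. Whether the numbers are raw or scaled is not stated and library totals are not given, so the depth and the precision it sets are unknown, and values are compared between genotypes within a region and stage only. A place not listed at a stage has no value there, which does not show that it was alike in both genotypes. For a single region, the smallest two-sided p of an exact permutation test of 3 against 3 is 0.1, so no such test was run and overlap of the values is stated instead.

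Listed differences lay at 7 of the 8 loci, and their direction turned over the course. At DE 19 of 21 regions were higher in the knockout and 2 in control, where the shares over all listed DE regions were 62.8% and 37.2%, and at GT 7 of 8 were, against 73.0% of all, with 1 higher in control (27.0% of all). At PE the balance was the reverse: 2 of 14 regions were higher in the knockout (43.9% of all listed PE regions) and 12 were higher in control (56.1% of all). At PP 13 of 22 were higher in the knockout and 9 in control, while over the whole series 88.7% and 11.3% were. At ESC the counts were 6 higher in the knockout and 7 in control, where 57.4% and 42.6% of all ESC regions were.

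The balance also varied between chromosomes, so the rest of each locus's own chromosome is given beside these counts. The share higher in the knockout was 90.5% at the loci for DE, 87.5% for GT, 14.3% for PE and 59.1% for PP. The rest of these chromosomes, weighted by the number of member regions on each, had 74.4% for DE, 78.9% for GT, 44.4% for PE and 75.3% for PP. These shares were not tested, since regions of a locus are neighbours and not replicates. CEBPA alone held 26 of the 78 regions; without it the counts were 11 of 12 higher in the knockout at DE, 10 of 10 higher in control at PE and 9 of 16 higher in control at PP.

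**Figure D1:**
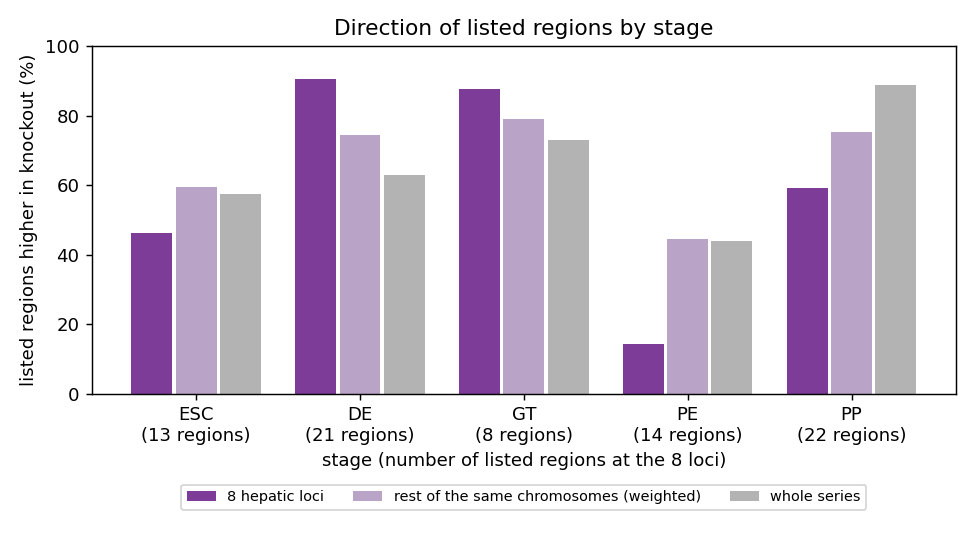
Share of listed regions that were higher in the knockout (percent, y axis) at each stage (x axis), for the 8 hepatic loci, for the rest of the same chromosomes weighted by the regions each holds, and for all listed regions. The hepatic loci stand highest at DE (90.5%) and lowest at PE (14.3%).

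Most differences at these loci were moderate. The size of the log2 ratio had a median of 0.75, against 0.94 over all listed regions, and 24 of the 78 (30.8%) were at least 2-fold, against 45.4% of all. Knockout and control values were fully apart in 54 of the 78 (69.2%), against 78.5% of all. Regions were 250 to 3900 bp wide, with a median of 950 bp. They fell into 68 places, of which 60 were listed at 1 stage and 8 at more than 1. In 2 of the 8 recurrent places the direction was the same at each stage, in the windows of PROX1 and CEBPA, and in 6 it was opposite. The same shares over all listed regions were not computed, so these counts are not read as particular to the 8 loci.

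**Figure D2:**
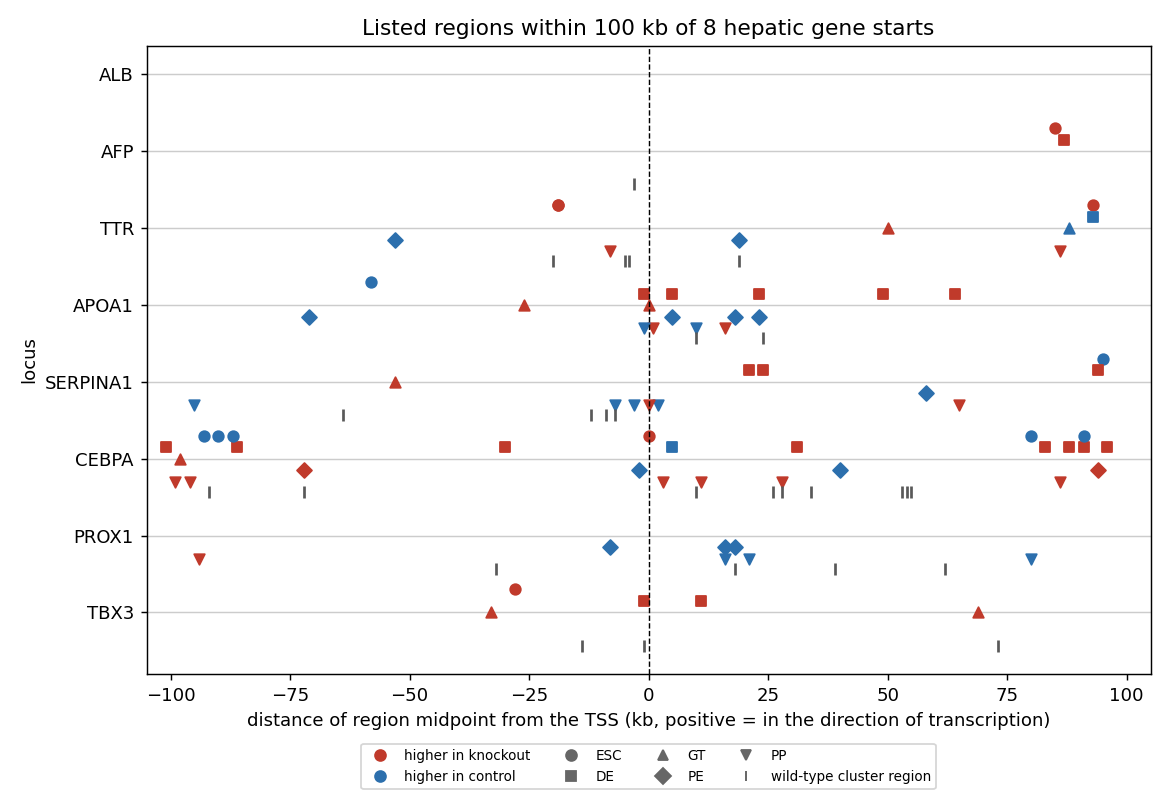
Position of every listed region (coloured symbol, shape by stage, x axis in kb from the start of the gene) and every wild-type cluster region (grey tick) at the 8 loci. ALB has no listed region, the 2 regions at AFP lie 85 and 87 kb downstream, and 6 of the 7 at PROX1 are higher in control.

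Little was listed at the albumin family locus, which is common over the genome. ALB and AFP, which encode the main serum proteins of the adult and fetal liver, are neighbours whose windows overlap, so each region was counted under the nearer start. No region was listed under ALB, and no list had a region within 50 kb of AFP. Both windows also take in AFM, whole or in part, by the RefSeq neighbours, and no region was assigned to it. Far downstream of AFP, a region 85 kb away had 252, 302 and 261 in knockout ESC and 216, 110 and 126 in control ESC (log2 ratio 0.85), without overlap. Another, 87 kb away, had 231, 100 and 182 in knockout DE and 103, 65 and 103 in control DE (0.91), and there 1 knockout value lay within the control range. Over the genome, 17.3% of 200 kb tiles held no listed region and 42.5% held 2 or fewer, and the median tile held 3. A single wild-type peak, of cluster 4, lay 3 kb upstream of AFP, and it overlapped no list.

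PROX1, the homeobox factor of liver bud and pancreatic progenitors, had the largest ratio and the highest score of the 8 loci, and its regions were listed at PE and PP alone. Of its 7 regions 6 were higher in control, where the rest of chromosome 1 had 58.0% higher in control at PE and 24.1% at PP. The RefSeq table lists no other protein-coding gene within 100 kb of its start.

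The leading region lay 16 kb downstream of the PROX1 start, at chromosome 1, 214177401 to 214177900. At PE the authors' deposited table gives it 12, 65 and 25 in knockout samples, against 175, 150 and 267 in control samples, a log2 ratio of -2.50 with a -log10 p of 25.4. At PP the same place, 214177451 to 214177900, had 90, 85 and 14 in knockout samples, against 198, 132 and 222 in control samples, a log2 ratio of -1.53 with a -log10 p of 12.2 in the authors' deposited table. All 3 knockout values lay below all 3 control values at both stages. By the authors' p it ranked 119 of 7111 in the control PE list and 277 of 3169 in the control PP list. Leaving out the highest knockout value, 65, moved the PE ratio to -3.35, and over all such omissions it ran from -3.35 to -2.11 at PE and from -1.87 to -1.06 at PP.

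Other PROX1 regions near this place had the same direction. One 18 kb downstream, over a wild-type peak of cluster 8, had 202, 377 and 366 in knockout PE and 433, 507 and 510 in control PE (log2 ratio -0.62), without overlap. At 21 kb, values were 61, 18 and 11 in knockout PP and 73, 83 and 89 in control PP (-1.42), again without overlap; without the knockout value of 61 the ratio was -2.42. At 80 kb they were 165, 195 and 152 in knockout PP against 262, 305 and 293 in control PP (-0.74). The region 8 kb upstream, with 309, 216 and 291 in knockout PE and 260, 442 and 551 in control PE (-0.62), overlapped between genotypes. The exception to the direction lay 94 kb upstream, where knockout PP had 114, 66 and 103 and control PP had 41, 31 and 15 (1.67). Thus all 5 regions from 8 kb upstream to 21 kb downstream were higher in control, while the PROX1 start itself was in no list.

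**Figure D3:**
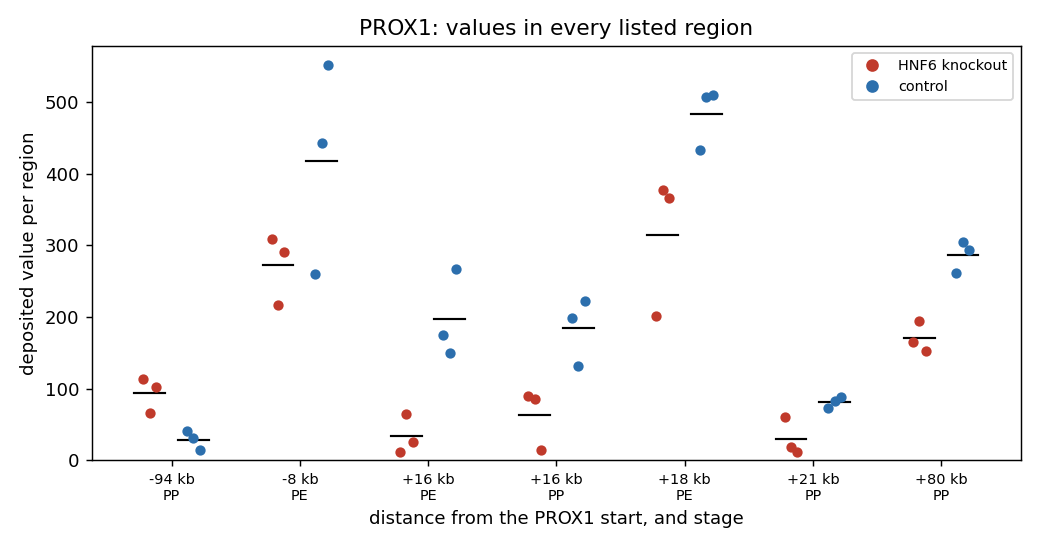
Deposited values (y axis) in the 3 knockout and 3 control samples for each listed region of PROX1, ordered by distance from its start, with the stage below; black lines are means. At +16 kb the 3 knockout values stay at or below 90 at both stages and the control values at or above 132.

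TBX3, the T-box factor that supports hepatoblasts, showed the other pattern, with 5 of 5 regions higher in the knockout and all of them at ESC, DE or GT. The strongest lay 33 kb upstream, at chromosome 12, 115154501 to 115155500, with 189, 150 and 244 in knockout GT and 58, 68 and 61 in control GT (log2 ratio 1.62, -log10 p 12.7 in the authors' deposited table), and the values did not overlap. It ranked 70 of 7524 in its list by the authors' p. A region 69 kb downstream had 90, 156 and 81 in knockout GT and 42, 48 and 39 in control GT (1.32), also without overlap.

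Close to the TBX3 start, in a region with a wild-type peak of cluster 3 inside, the values overlapped. They were 839, 1325 and 1156 in knockout DE and 1047, 765 and 666 in control DE (log2 ratio 0.42). They overlapped too at 11 kb downstream at DE (454, 357 and 228 in knockout against 201, 252 and 177 in control, 0.72) and at 28 kb upstream at ESC (383, 194 and 236 in knockout against 227, 151 and 107 in control, 0.74). On the rest of chromosome 12, 56.4% of listed regions were higher in the knockout at ESC, 59.0% at DE, 88.3% at GT, 11.7% at PE and 82.3% at PP. Within 100 kb, TBX3 had none at PE or PP in either direction. Just outside the window, 102.95 kb from the start, a PE region was higher in control. It had 75, 32 and 44 in knockout PE and 122, 177 and 114 in control PE (-1.43), so the pattern depends on the window.

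CEBPA, the C/EBP factor of hepatocyte maturation, had the most regions, 26, where 3.91% of 200 kb tiles held as many or more. Its window also takes in LRP3, SLC7A10, CEBPG and part of PEPD by the RefSeq neighbours, and regions were not divided between these genes. Direction again changed with stage: 5 of 6 were higher in control at ESC, 8 of 9 higher in the knockout at DE, 1 of 1 at GT, 2 of 4 at PE and 6 of 6 at PP. On the rest of chromosome 19 the share higher in the knockout was 44.7% at ESC, 77.0% at DE, 75.2% at PE and 47.4% at PP.

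At the CEBPA start itself, chromosome 19, 33792601 to 33794250, the difference was small and the values did not overlap: 1377, 1367 and 1329 in knockout ESC and 1085, 1046 and 1191 in control ESC (log2 ratio 0.29). Just upstream of it, at 2 kb, PE went the other way, with 272, 169 and 285 in knockout samples, against 377, 356 and 440 in control samples (-0.69). The highest score at the locus was 40 kb downstream at PE, with 287, 173 and 181 in knockout samples, against 395, 505 and 286 in control samples (-0.88, -log10 p 10.8 in the authors' deposited table), where 1 knockout value lay above the lowest control value by 1 unit.

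All 6 PP regions of CEBPA were higher in the knockout, 3 of them within 30 kb downstream of its start. At 28 kb, over a wild-type peak of cluster 4, knockout PP had 605, 483 and 529 and control PP had 293, 307 and 392 (log2 ratio 0.70). At 11 kb, overlapping a peak of cluster 5, they were 427, 290 and 241 in knockout samples, against 163, 216 and 194 in control samples (0.74), and at 3 kb 569, 388 and 587 against 283, 362 and 369 (0.61). These 3 regions showed no overlap between genotypes.

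Places at both far ends of the CEBPA window changed direction between stages. At 91 kb downstream, ESC values were 32, 95 and 90 in knockout samples, against 170, 94 and 171 in control samples (log2 ratio -0.99), with overlap. DE values there were 541, 357 and 418 in knockout samples, against 314, 205 and 323 in control samples (0.64), without overlap. At 86 to 87 kb upstream, ESC values were 456, 429 and 658 in knockout samples, against 903, 665 and 645 in control samples (-0.52). DE values there were 534, 475 and 353 in knockout samples, against 289, 381 and 205 in control samples (0.64). The genotypes overlapped at both stages at this upstream place. Around 96 to 99 kb the knockout was higher at both GT and PP, for instance with 255, 217 and 240 in knockout PP and 135, 106 and 113 in control PP (1.00). The last region inside the window, 99.3 kb from the start, had a log2 ratio of 0.45 at DE, and the first outside, 100.9 kb from the start, 0.46 at PE.

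The CEBPA promoter is shown because a listed region covers its start; the RefSeq table (GRCh38.p14, another build than the regions) gives these 250 bases upstream of it, at chr19:33302535-33302784 on the minus strand. It is 81.2% G or C, and none of the motifs searched below occurs in it, so it has no capitals.
CEBPA: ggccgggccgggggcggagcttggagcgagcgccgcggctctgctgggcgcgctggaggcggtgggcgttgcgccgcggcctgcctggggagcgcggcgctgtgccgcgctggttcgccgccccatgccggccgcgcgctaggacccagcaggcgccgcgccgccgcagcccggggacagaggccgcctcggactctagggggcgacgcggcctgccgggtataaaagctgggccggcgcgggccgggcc

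SERPINA1, which encodes the protease inhibitor alpha-1-antitrypsin, had 12 regions, 6 of them at PP. At that stage its start and the nearest regions on either side went in opposite directions. The region over its start, chromosome 14, 94854551 to 94855450, had 485, 334 and 346 in knockout PP and 211, 280 and 246 in control PP (log2 ratio 0.66), without overlap. The region 7 kb upstream, 94861351 to 94862900, had 559, 542 and 721 in knockout PP and 1011, 965 and 1011 in control PP (-0.71), with no overlap and a -log10 p of 18.8 in the authors' deposited table, rank 87 of 3169. It covers a wild-type peak of cluster 8.

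Closer to the SERPINA1 start on either side, control PP was higher as well. At 3 kb upstream the values were 67, 68 and 31 in knockout samples, against 151, 123 and 97 in control samples (log2 ratio -1.15), without overlap. At 2 kb downstream they were 78, 121 and 33 in knockout samples, against 274, 96 and 114 in control samples (-1.05), with overlap; without the control value of 274 the ratio was -0.44. Farther away, 65 kb downstream, the knockout was higher, with 279, 229 and 291 in knockout PP and 173, 142 and 106 in control PP (0.92). There the values did not overlap, and the -log10 p was 8.0 in the authors' deposited table. In all, 4 of the 6 PP regions were higher in control, where 12.4% were on the rest of chromosome 14. In 6 of the 9 PP regions of all loci with more signal in control, the knockout value given last was the lowest of its 3. That share was 66.7%, where the whole control PP list had 34.6%. The part of this value in the result was not tested. Without it the median log2 ratio of the 9 was -0.85, against -0.96 with all values. Other groups were uneven too. For instance, in the 13 PP regions higher in the knockout, the second knockout value was lowest in 10 (76.9%), against 42.4% of that whole list. In the 12 PE regions higher in control it was lowest in 7 (58.3%), against 42.0%.

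Before PP the SERPINA1 window had 3 regions higher in the knockout at DE and 1 at GT, and 1 higher in control at each of ESC and PE. On the rest of chromosome 14, 81.9% were higher in the knockout at DE and 78.3% at GT, while 32.9% were higher in control at ESC and 81.3% at PE. At 24 kb downstream, DE values were 263, 163 and 144 in knockout samples, against 117, 76 and 75 in control samples (log2 ratio 1.08). At 58 kb, PE values were 64, 60 and 54 in knockout samples, against 134, 192 and 108 in control samples (-1.27). Neither pair of groups overlapped. The window also holds SERPINA10, SERPINA6, SERPINA11, SERPINA9 and part of SERPINA12, related serpin genes.

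RefSeq lists a pair of SERPINA1 starts that are 2033 bases apart in GRCh38.p14, and the 250 bases before each are shown because a region differing at PP covers the start used here and others flank it. Which of them the hg19 region covers was not determined, as the builds differ. Capitals mark TGTTTGC, a FOXA-type word, and GTTAAT, the first part of the HNF1 palindrome; the upstream promoter has neither.
SERPINA1 upstream start, chr14:94390636-94390885, minus strand: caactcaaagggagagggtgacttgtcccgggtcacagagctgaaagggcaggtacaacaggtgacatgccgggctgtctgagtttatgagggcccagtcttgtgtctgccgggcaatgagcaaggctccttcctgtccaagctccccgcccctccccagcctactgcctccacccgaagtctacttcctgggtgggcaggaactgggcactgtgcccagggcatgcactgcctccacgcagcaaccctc
SERPINA1 downstream start, chr14:94388603-94388852, minus strand: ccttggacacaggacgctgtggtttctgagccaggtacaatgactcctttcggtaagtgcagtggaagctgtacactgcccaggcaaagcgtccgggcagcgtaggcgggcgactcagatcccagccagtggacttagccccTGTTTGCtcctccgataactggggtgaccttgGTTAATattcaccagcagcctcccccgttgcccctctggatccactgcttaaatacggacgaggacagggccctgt

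Promoters of 4 of the 8 genes (ALB, AFP, SERPINA1 and CEBPA) were in the table. In them ATCAAT and ATCGAT, words of the HNF6 core, the full HNF1 palindrome, TGTTTAC (FOXA) and TTGCGCAA (C/EBP) had no match on either strand. TTGCNNAA, a looser C/EBP word that contains TTGCGCAA, had 1 match each in ALB and AFP, and GTTAAT had 1 each in ALB, AFP and the downstream SERPINA1 promoter, 61, 132 and 76 bases before the start. TGTTTGC had 1, 108 bases before the downstream SERPINA1 start. Of 35116 promoters of the same length, 5.58% held ATCAAT, 0.655% ATCGAT, 6.23% GTTAAT, 9.05% TTGCNNAA, 3.23% TGTTTGC, 2.98% TGTTTAC, 0.131% TTGCGCAA and 0.0057% the HNF1 palindrome.

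APOA1, the main protein of high-density lipoprotein, had 16 regions whose direction followed the stage: 5 of 5 were higher in the knockout at DE and 2 of 2 at GT, 4 of 4 were higher in control at PE, and PP had 2 of each. On the rest of chromosome 11 the share higher in the knockout was 79.9% at DE, 84.1% at GT, 39.0% at PE and 89.3% at PP. Its window holds APOC3, APOA4 and APOA5, further apolipoprotein genes, and BUD13, ZPR1 and part of SIK3.

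APOA1 was the locus whose start was listed most often, in both directions. At DE the region over the start, chromosome 11, 116707801 to 116709800, had 776, 781 and 600 in knockout samples, against 582, 491 and 432 in control samples (log2 ratio 0.52). At GT it had 982, 904 and 1044 in knockout samples, against 801, 707 and 736 in control samples (0.38). At PP a narrower region within 1 kb of the start, 116708301 to 116708950, had 919, 872 and 956 in knockout samples, against 1149, 1231 and 1240 in control samples (-0.40). The genotypes did not overlap at any of the 3 stages, and all ratios were below 1.5-fold. On the gene's side of the start, at 116706451 to 116707450, knockout PP had 714, 651 and 666 and control PP had 436, 628 and 461 (0.41). Thus separate stretches within 1 kb of the start differed in opposite directions at PP. The start was taken to the kilobase, so whether the narrower region covers it was not determined.

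Downstream of APOA1, 2 places were higher in the knockout at DE and higher in control at PE. At 23 kb, over a wild-type peak of cluster 9, DE values were 859, 788 and 867 in knockout samples, against 630, 612 and 591 in control samples (log2 ratio 0.46). At PE they were 168, 149 and 232 in knockout samples, against 403, 357 and 298 in control samples (-0.94, -log10 p 10.6 in the authors' deposited table). Neither stage showed overlap. At 5 kb, DE values of 524, 379 and 604 in knockout samples, against 411, 319 and 319 in control samples (0.52) overlapped, and PE values of 569, 504 and 528 in knockout samples, against 820, 733 and 733 in control samples (-0.51) did not. At 10 kb, over a peak of cluster 8, knockout PP had 231, 183 and 106 and control PP had 372, 320 and 249 (-0.85).

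**Figure D4:**
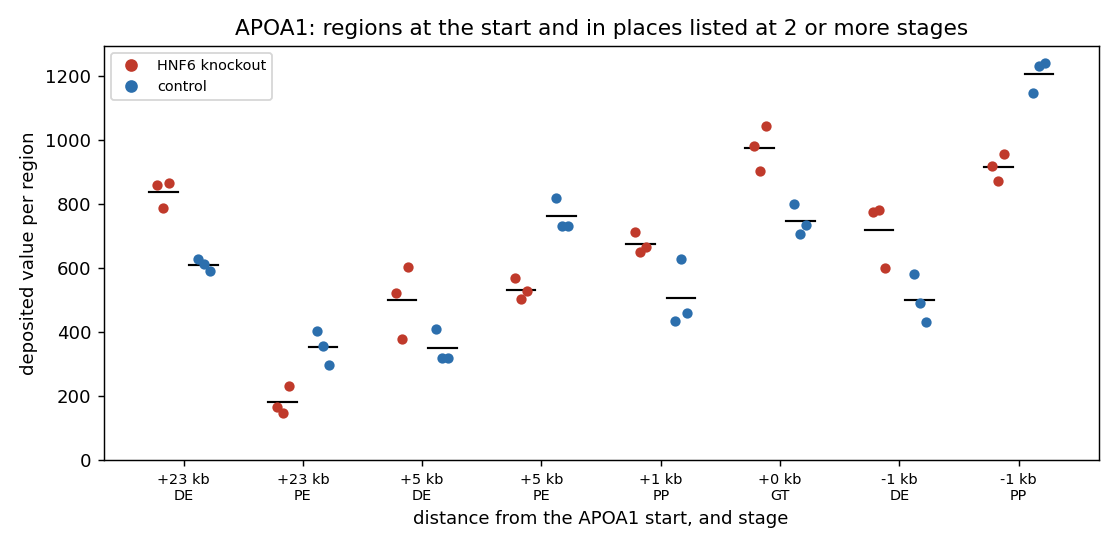
Deposited values (y axis) in the 3 knockout and 3 control samples for the APOA1 regions at the start and in places listed at 2 or more stages (x axis: distance from the start, and stage); black lines are means. The knockout is higher at DE and GT, and control is higher at PE. At PP control is higher at -1 kb and the knockout at +1 kb.

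TTR, which encodes the thyroxine and retinol-binding-protein carrier transthyretin, had 10 regions, 6 higher in the knockout and 4 in control. All 3 ESC regions and both PP regions were higher in the knockout, both PE regions were higher in control, and GT had 1 of each. The rest of chromosome 18 had a like order, with 79.7% higher in the knockout at ESC, 10% at PE and 93.1% at PP. The TTR start was in no list, and neither were the wild-type peaks of clusters 4 and 8 that lie 5 and 4 kb upstream of it. By the RefSeq neighbours the TTR window also takes in DSG2 and B4GALT6, whole or in part. Regions, the far ones below included, were not divided between these genes.

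Nearest to the TTR start was a region 8 kb upstream, with 120, 112 and 73 in knockout PP and 46, 25 and 32 in control PP (log2 ratio 1.54), without overlap. At 19 kb downstream, over a peak of cluster 8, PE values were 760, 724 and 734 in knockout samples, against 840, 915 and 1199 in control samples (-0.41). At 19 kb upstream, ESC values were 133, 160 and 178 in knockout samples, against 55, 77 and 62 in control samples (1.27). The groups were apart in each of these. The highest score of the window lay 93 kb downstream, with 1266, 1546 and 1567 in knockout ESC and 835, 916 and 1106 in control ESC (0.62, -log10 p 21.1 in the authors' deposited table). At DE the same place had 174, 301 and 274 in knockout samples, against 525, 247 and 366 in control samples (-0.60), with overlap.

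**Figure D5:**
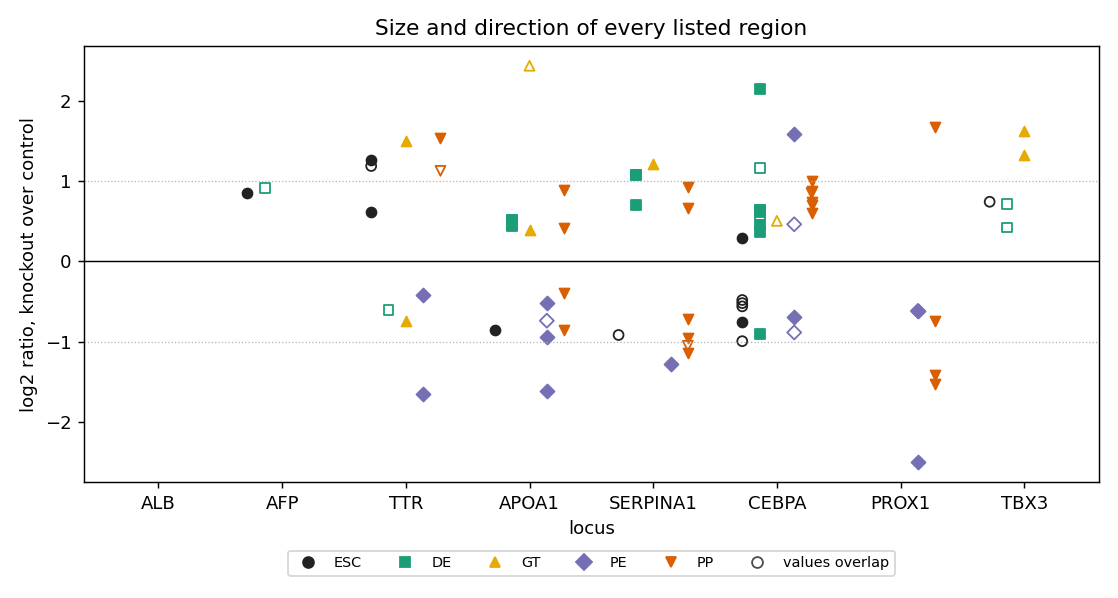
Log2 ratio of knockout over control (y axis) of every listed region, by locus (x axis) and stage (symbol); open symbols mark regions where the values of the genotypes overlap, and dotted lines mark 2-fold. PROX1 reaches -2.50 at PE, the 5 ratios of TBX3 are all positive, and the PE symbols lie mostly below 0.

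Of the 27 wild-type peaks in the windows 9 overlapped a list (33.3%), against 38.4% of all cluster regions. Cluster 8 held 10 of the 27 (37.0%), where it makes up 12.3% of all cluster regions, at 6 loci: 2 at TTR, 1 at APOA1, 3 at SERPINA1, 1 at CEBPA, 2 at PROX1 and 1 at TBX3. Of those 10, 4 overlapped a list, against 47.3% of all cluster 8 peaks. Each of these 4 was higher in control, at PE for TTR and PROX1 and at PP for APOA1 and SERPINA1, where 45.6% of all listed cluster 8 peaks lay in lists of regions higher in control alone. Cluster 3 had 6, of which 5 were at CEBPA, and clusters 2 and 7 had none. The labels do not describe the accessibility profile behind any cluster.

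The alternative fates gave like counts at the pancreatic stages when set side by side, with no test between them. Around 7 pancreatic transcription factor genes (PDX1, NKX6-1, PTF1A, SOX9, MNX1, RFX6 and NKX2-2) 79 regions were listed. At PE 2 of 14 hepatic regions were higher in the knockout and 12 in control, against 3 and 13 of the 16 pancreatic regions. At PP 13 of 22 hepatic regions were higher in the knockout and 9 in control, against 15 and 9 of the 24 pancreatic regions. At DE 19 of 21 hepatic regions were higher in the knockout, against 10 of 16 pancreatic ones. Over all listed regions, the share higher in the knockout was 43.9% at PE, 88.7% at PP and 62.8% at DE. The median size of the log2 ratio was 0.75 at the hepatic and 0.78 at the pancreatic loci, and 24 wild-type peaks lay in the pancreatic windows.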

How the data were processed

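ATAC-seq had been made from 30 samples in 10 groups. The tools named in the submitters' processing notes are Bowtie2 and MACS2, with the build hg19. For versions, the differential caller, a read shift for the transposase and scaling, nothing is stated. Deposited were 10 headerless lists of differential regions and 9 of wild-type cluster regions, each 500 bp wide. In the lists the authors give a log2 ratio, reproduced from the values in all 89929 regions, a -log10 p, and 2 sets of 3 whole numbers. The set higher in every knockout list was read as knockout, the other as control, which rests on the list names. The sets carry no replicate numbers.

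A region was a member when any base lay within 100 kb of a start. No count model was run, because the lists hold selected regions only, and none of the counts was tested. The code was tested on simulated regions. Members and lists were chosen with earlier results of these data known. The starts of the comparison genes were set to the kilobase from general knowledge of hg19 and not checked against an annotation. 1 gene of the pancreatic comparison list is not reported here. Regions given with all values were those within 1 kb of a start, the 3 with the highest -log10 p at each locus and up to 4 recurrent places per locus, 35 in all; further ones were chosen after their values were seen, and so was the motif GTTAAT. Neighbouring genes are by name from RefSeq on GRCh38.p14. Python 3.11.15 and matplotlib 3.10.9 were used. Alternatives tried were other windows, thresholds, overlaps, pseudocounts and omission of each value.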

Additional observations from a re-analysis of the deposited data

Results flagged for a closer look

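At 3 pairs of overlapping regions, all around APOA1, every value moved in opposite directions at 2 stages; the difference between stages itself was not tested. At 23 kb downstream the log2 ratio of knockout over control was 0.46 at DE and -0.94 at PE, a difference of 1.40. At the start it was 0.38 at GT and -0.40 at PP, a difference of 0.78. With the DE region at the start, 0.52 at DE against -0.40 at PP, the difference was 0.92. The GT and DE pairs share the PP region, and the regions of a pair differ in width.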

How the results depend on the processing

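The main counts were 47 member regions higher in the knockout, 31 higher in control, 27 wild-type peaks, 9 of them in a list, and 24 regions of at least 2-fold. With 50 kb on either side of a start there were 24 higher in the knockout and 17 in control; with 200 kb, 79 higher in the knockout and 42 wild-type peaks. At a -log10 p of at least 10, 3 were higher in the knockout and 5 in control, and 3 wild-type peaks overlapped a list. These changes follow from keeping fewer or more regions. Leaving out each of the 6 value columns gave 23 to 30 regions of at least 2-fold. For the 35 regions of the naming rule, 245 log2 ratios were recomputed by omission of a value or with a pseudocount of 10. None changed sign, nor did any at the other member regions, where the omission of a value was added after seeing the data. A pseudocount cannot change a sign. Omission cannot either where the values of the genotypes do not overlap, as in 54 of the 78 regions. For these the outcome was fixed in advance, so the absence of sign changes says little. The added omission of CEBPA gave 11 regions higher in the knockout at DE, against 19. No paired analysis was possible because the value columns carry no replicate numbers and no test was run. Depth is unknown.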

Other observations

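Around 10 further hepatic genes, listed as comparison genes whatever their direction, 66 regions were listed, 43 higher in the knockout (65.2%) and 23 in control (34.8%), close to the 68.1% and 31.9% of all listed regions. TF, the gene of the iron carrier transferrin, had 13 of 14 higher in the knockout, 9 of them at PP, where 88.7% of all listed regions were, and FGB, a fibrinogen chain, had 6 of 6, with 3 at PP. APOA2, an apolipoprotein gene, had 9 and 5, with 4 of its 5 PP regions higher in control. APOB, the structural protein of low-density lipoprotein, had 3 and 4. HHEX, a homeobox factor of liver and ventral pancreas, had 1 higher in the knockout and 4 in control. NR5A2 and RBP4 had 2 regions each, APOH 3, GC 5 and AHSG 8. At DE 5 of 9 regions of this list were higher in the knockout (55.6%) and 4 in control, against the 62.8% of all listed DE regions and the 19 of 21 at the 8 loci above. At PE 3 of 11 regions of this list were higher in the knockout and 8 in control, and at PP 21 of 26 and 5 of 26 were. None of these counts was tested.

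A region 26 kb upstream of APOA1 had the largest ratio in the knockout's favour of the 78 (log2 2.43), yet its knockout GT values were 5, 49 and 116, against 10, 12 and 7 in control GT, so that 1 knockout library was below all control libraries; without the knockout value of 116 the ratio was 1.39.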
